A study of Mus musculus with 10 samples.

Results

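The 10 genes described here are messenger RNAs of the mitochondrial genome, and all code for subunits of the respiratory chain or the ATP synthase. They were taken by identifier from a list that pairs each Ensembl identifier with its symbol. All 10 were found among the 33538 identifiers of the count table, and all 10 were among the 16013 genes kept after removal of genes with low counts. RNA was measured in 10 flank tumours of DAOY, an established human medulloblastoma line, grown in nude mice, which lack a working thymus and therefore tolerate human grafts. The tumours came from mice given DHA oil (n = 3), fish oil (n = 4) or ordinary control chow (n = 3) and were taken after 30 days of treatment. DHA is docosahexaenoic acid, and the label fish oil was read as the diet in which eicosapentaenoic acid (EPA) was added to it, both being long-chain omega-3 fatty acids. Every group therefore carries the same single line in the same kind of host (all labelled female), whose own vessels and connective tissue can be part of a dissected tumour. The labels tie no library to a named mouse and give no age, so the spread between libraries may be partly technical.

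Mitochondria keep a small circular genome of their own, present in many copies per cell. Its genes are read as long joint transcripts from each strand, which are cut into single messenger, ribosomal and transfer RNAs and then degraded at rates that differ between RNAs. All the genes described here are read in the same direction. Their proteins sit in the inner membrane beside many nuclear-encoded subunits. Complex I takes electrons from NADH, complex III passes them on to cytochrome c, complex IV gives them to oxygen, and the ATP synthase uses the resulting proton gradient to make ATP. Because these RNAs are abundant in most tissues, their share of all counts is also a common check on libraries and cells. In such a share, fewer mitochondrial RNAs and more of all other RNAs cannot be told apart, nor can fewer cells of one type and less RNA per cell.

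Total counts per library ranged from 6187116 to 10035702. On the first principal component of all genes tested, which held 26.4% of the variance, fish oil replicate 4 lay at 52.9 and fish oil replicate 2 at 21.4, while the other 8 libraries lay between -19.1 and 1.71. Results that touch fish oil replicate 4 are therefore given with and without it. The count table pairs no names with its identifiers, and the reference tables at hand cover the mouse and matched 0 of them. Markers of DAOY cells or of host tissue, and the nuclear-encoded partners of the mitochondrial genes, were for that reason not measured here, and neither gene lengths nor sequences of the human mitochondrial genome were used. Levels are compared between libraries, not between genes.

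The 10 mitochondrial genes together took 4.55% to 6.91% of all counts in 9 libraries and far less in 1. Other genes of the mitochondrial genome are not in this sum, so it is not the full mitochondrial share. In DHA oil tumours their summed share was 5.99%, 6.57% and 5.28% of all counts in replicates 1, 2 and 3. In fish oil tumours it was 4.87%, 4.93%, 5.07% and 1.72% in replicates 1, 2, 3 and 4. In control tumours it was 6.91%, 4.55% and 4.71% in replicates 1, 2 and 3. The first 3 fish oil libraries were nearly equal and lay inside the range of the controls, the DHA oil libraries lay there too (4.55% to 6.91%), and the fourth fish oil library lay below every other.

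The mean summed share was 5.94 ± 0.65% in DHA oil, 4.15 ± 1.62% in fish oil and 5.39 ± 1.32% in control (SD, n = 3, 4 and 3). Without fish oil replicate 4 the fish oil mean was 4.95 ± 0.11% (SD, n = 3). The fish oil mean minus the control mean was -1.24 percentage points with all libraries and -0.43 without fish oil replicate 4. It was -0.48 without control replicate 1, so the distance from control depended on either library to a similar degree. All 4 fish oil libraries lay below all 3 DHA oil libraries in the summed share, but the highest fish oil value (5.07%) and the lowest DHA oil value (5.28%) were close. Control replicate 1 lay above the other controls and above every oil library. Counting error was small beside these differences. The 95% Wilson interval ran from 1.71% to 1.73% in fish oil replicate 4 and from 4.53% to 4.56% in control replicate 2, and covers counting error only. No test was made on the summed share, since the genes were chosen with earlier results known.

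**Figure D1:**
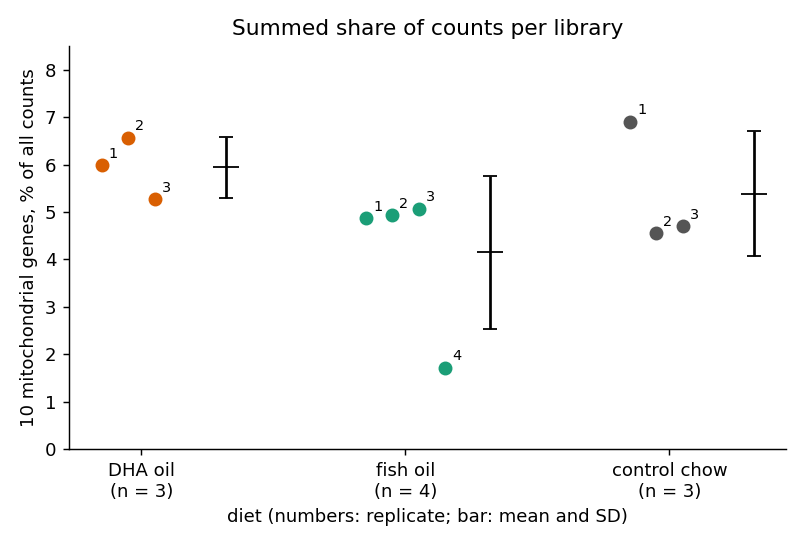
Share of all counts taken by the 10 mitochondrial genes in each library (y axis, percent), by diet (x axis); points are libraries numbered by replicate, and the bar beside each group is its mean with SD. Fish oil replicate 4 lies at 1.72%, below the 4.55% to 6.91% of the other 9 libraries.

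Complex I is the entry point for electrons from NADH, and 5 of its core membrane subunits are among the genes measured. MT-ND1 (ENSG00000198888), which helps to form the quinone-binding region, took 0.424%, 0.386% and 0.285% of counts in DHA oil replicates 1, 2 and 3. It took 0.274%, 0.201%, 0.261% and 0.0796% in fish oil replicates 1 to 4, and 0.360%, 0.310% and 0.234% in control replicates 1 to 3. All 4 fish oil libraries lay below all 3 DHA oil libraries, whereas the controls overlapped both oils.

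MT-ND2 (ENSG00000198763) and MT-ND4 (ENSG00000198886) code for subunits of the proton-pumping membrane arm. MT-ND2 took 0.280%, 0.305% and 0.225% in DHA oil, 0.218%, 0.212%, 0.236% and 0.0677% in fish oil, and 0.289%, 0.204% and 0.200% in control, in replicate order. MT-ND4 took 1.11%, 1.13% and 0.974% in DHA oil, 0.850%, 0.966%, 0.952% and 0.292% in fish oil, and 1.23%, 0.737% and 0.823% in control. For both genes the controls spanned the first 3 fish oil libraries, and the highest control exceeded the highest fish oil library.

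MT-ND5 (ENSG00000198786), a further subunit of the membrane arm, had a median of 0.354% in DHA oil (range 0.321% to 0.386%), 0.278% in fish oil (0.0998% to 0.337%) and 0.270% in control (0.259% to 0.421%). MT-ND3 (ENSG00000198840), a small membrane subunit, had a median of 0.119% in DHA oil (range 0.110% to 0.134%), 0.101% in fish oil (0.0296% to 0.116%) and 0.0903% in control (0.0824% to 0.115%). The diets overlapped for both genes.

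Complex IV, cytochrome c oxidase, has its catalytic core encoded in the mitochondrial genome. MT-CO1 (ENSG00000198804), whose protein holds the oxygen-reducing centre, took 1.08%, 1.25% and 1.04% in DHA oil, 0.934%, 0.959%, 0.943% and 0.347% in fish oil, and 1.34%, 0.883% and 0.964% in control. MT-CO2 (ENSG00000198712), whose protein accepts electrons from cytochrome c, took 0.594%, 0.731% and 0.536% in DHA oil, 0.562%, 0.540%, 0.565% and 0.187% in fish oil, and 0.745%, 0.483% and 0.540% in control. MT-CO3 (ENSG00000198938), the third core subunit, took 1.06%, 1.18% and 0.925% in DHA oil, 0.850%, 0.806%, 0.883% and 0.338% in fish oil, and 1.25%, 0.892% and 0.841% in control. MT-CO1 and MT-CO3 had all fish oil libraries below all DHA oil libraries, MT-CO2 did not, and control replicate 1 held the highest value of all 10 libraries for each of the 3 genes.

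MT-CYB (ENSG00000198727), cytochrome b of complex III, took 0.509%, 0.580% and 0.477% in DHA oil, 0.452%, 0.415%, 0.447% and 0.157% in fish oil, and 0.615%, 0.383% and 0.403% in control. MT-ATP6 (ENSG00000198899), a subunit of the proton channel of the ATP synthase, took 0.451%, 0.479% and 0.384% in DHA oil, 0.356%, 0.384%, 0.384% and 0.123% in fish oil, and 0.536%, 0.315% and 0.342% in control. The fish oil libraries of MT-CYB lay below those of DHA oil, and the highest fish oil library of MT-ATP6 stood level with the lowest DHA oil library.

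**Figure D2:**
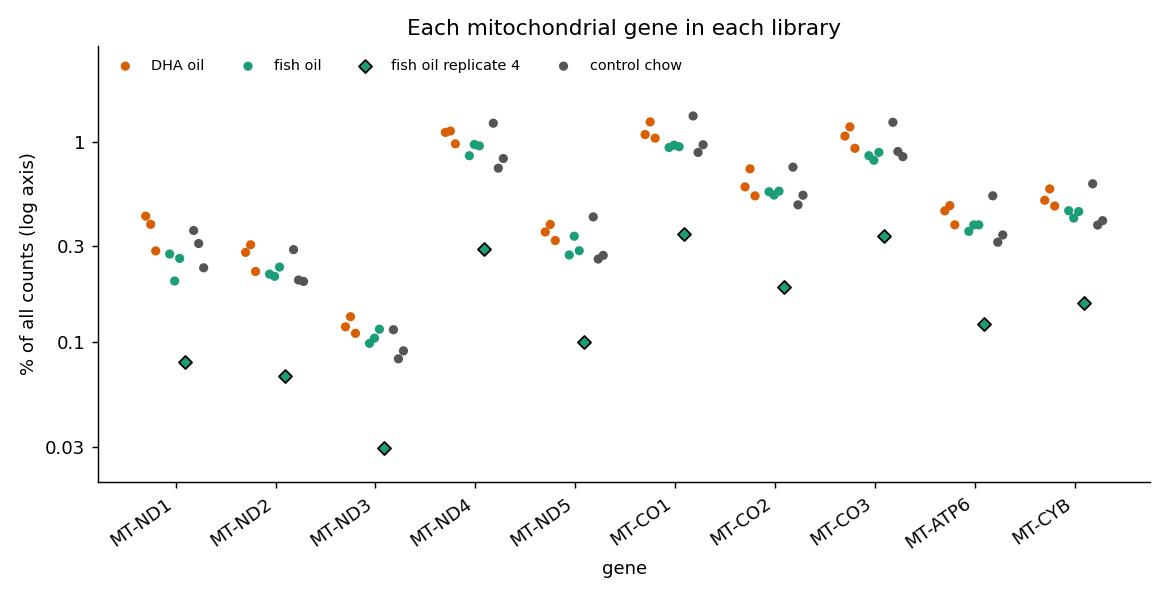
Share of all counts (y axis, percent, log axis) of each mitochondrial gene (x axis) in each of the 10 libraries; orange circles are DHA oil, green circles fish oil, green diamonds fish oil replicate 4 and grey circles control chow. The diamond lies below every other library for all 10 genes, at 0.0296% for MT-ND3 and 0.347% for MT-CO1.

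Fish oil replicate 4 is described next. It was singled out because its most abundant genes take the smallest share of counts, a quantity to which the mitochondrial genes contribute. Those among the top 10 genes by count held 0.686% of all counts there and 3.17% to 5.72% in the other libraries. The low values of the mitochondrial genes are thus tied to that choice, so they are a description and carry no test. All 10 genes were lower there than in any other library, against 22.6% of all genes tested. Each was at least 2-fold below the mean of the other fish oil libraries on the log2 CPM scale (CPM being counts scaled to the TMM-adjusted library total), against 3.4% of all genes tested. The log2 difference ran from -1.81 for MT-ND3 to -1.30 for MT-CO3, with a median of -1.56, beside a median of 0.01 over all 16013 genes. In summed share this library was 2.88-fold below the mean of the other 3 fish oil libraries and 2.64-fold below control replicate 2, the lowest of the other 9.

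The difference was similar, though not equal, across the complexes. The 5 complex I genes stood at 27.8% to 33.5% of the mean of the other fish oil libraries. The 3 complex IV genes stood at 33.7% to 40.0%. MT-CYB of complex III stood at 35.9% and MT-ATP6 of the ATP synthase at 32.9%. The ratio of complex I counts to complex IV counts was 0.651 in this library, below the 0.690 to 0.834 of the other 9. Its make-up of mitochondrial counts thus lay slightly beyond theirs in that ratio.

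**Figure D3:**
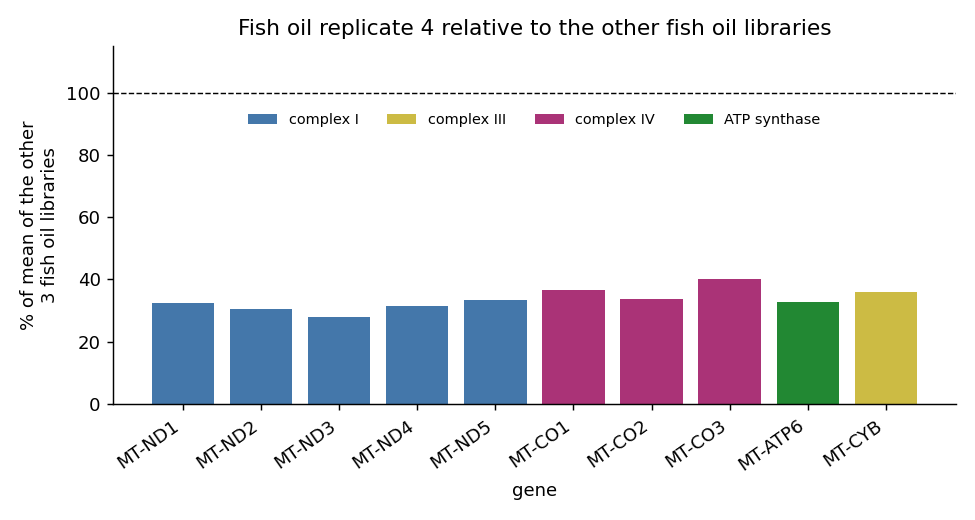
Share of counts of each mitochondrial gene in fish oil replicate 4 as a percentage of its mean in the other 3 fish oil libraries (y axis, dashed line at 100%), coloured by respiratory complex. Bars run from 27.8% for MT-ND3 to 40.0% for MT-CO3.

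Other abundant genes did not share this difference of at least 2-fold. Of the 78 genes whose mean log2 CPM reached that of MT-ND3, 10 were at least 2-fold lower there, and these were the 10 mitochondrial genes. That floor is the level of the least abundant gene of the set, and less abundant genes did share the difference. Of the 16013 genes tested, 545 were at least 2-fold lower there, the mitochondrial genes included. ENSG00000212907, described below, took 0.0191% of counts there and 0.0680% to 0.0731% in the other fish oil libraries. The top 10 genes by count held 4.83% of all counts in this library and 6.16% to 7.72% in the others. Mitochondrial genes were 2 of those 10 there and 4 to 6 of them in the other libraries. The 10 largest genes outside the mitochondrial set took 4.80% of counts in fish oil replicate 4 and 3.84% to 4.75% in the other libraries. In every other library a mitochondrial gene had the most counts of all, while in fish oil replicate 4 the highest stood at rank 9 and the lowest at rank 457.

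Depth did not set this library apart. Its total of 8982059 counts was inside the range of the others, its TMM scaling factor was 0.991 beside 0.978 to 1.02, and it had 15395 genes with at least 10 counts beside 14902 to 15982. Fish oil replicate 2, the other library set apart on the first principal component, had an ordinary summed share (4.93%). What part other cell types, RNA quality or reads of the mouse host have in the low share was not tested.

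A smaller departure was seen in control replicate 1. All 10 genes were higher there than in the other controls, against 33.1% of all genes tested. The excess over the mean of the other controls ran from 1.32-fold for MT-ND1 to 1.63-fold for MT-ATP6. Control chow thus held both the highest library (6.91%) and the lowest but 1 (4.55%), a range wider than that of DHA oil.

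The mitochondrial genes varied together from library to library. Over the 45 pairs of genes, log2 CPM values with the diet mean removed correlated at r = 0.874 to 0.997 (median 0.984, Pearson, 10 libraries). These correlations lean on fish oil replicate 4. Without it they ran from 0.292 to 0.985, with a median of 0.895. They are a description, as the genes share libraries, depth and scaling.

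MT-ND1 followed the others least. Without fish oil replicate 4 its median r with the other 9 genes was 0.496, while the median was 0.822 to 0.922 for each of the others. MT-ND1 made up 7.09%, 5.88% and 5.40% of the mitochondrial counts in DHA oil replicates 1 to 3, 5.64%, 4.09%, 5.15% and 4.62% in fish oil replicates 1 to 4, and 5.21%, 6.82% and 4.98% in control replicates 1 to 3. The coefficient of variation of this proportion was 16.8% over the 10 libraries, against 3.47% to 9.68% for the other genes. DHA oil replicate 1 and control replicate 2 were the high libraries and fish oil replicate 2 the low one. The mean proportion was 6.12 ± 0.87% in DHA oil, 4.88 ± 0.67% in fish oil and 5.67 ± 1.00% in control (SD, n = 3, 4 and 3), and the diets overlapped. Within complex I, the ratio of MT-ND1 to MT-ND2 counts was 1.52 in both high libraries, 0.947 in fish oil replicate 2 and 1.10 to 1.27 in the other 7.

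**Figure D4:**
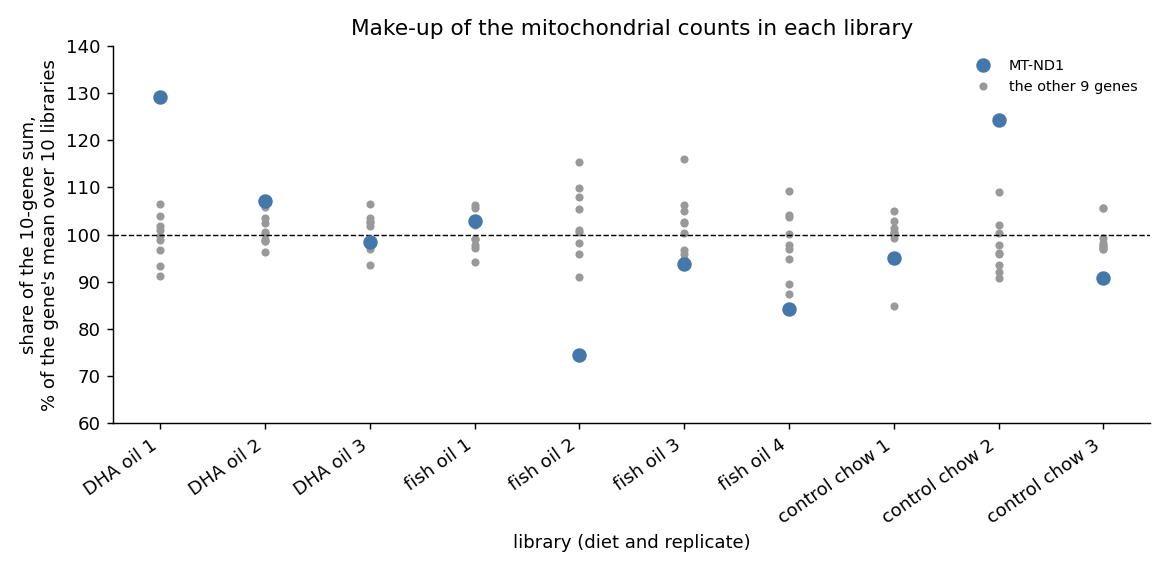
Proportion of the 10-gene sum held by each gene in each library, as a percentage of that gene's mean over the 10 libraries (y axis), by library (x axis); blue is MT-ND1 and grey the other 9 genes. MT-ND1 is the widest ranging, from 4.09% of the sum in fish oil replicate 2 to 7.09% in DHA oil replicate 1.

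The genes were uneven between tumours of 1 diet. The SD of log2 CPM within diets was 0.46 to 0.61 (median 0.56), beside a median of 0.24 over all genes tested and 0.22 over the 68 other genes of at least the abundance of MT-ND3. Without fish oil replicate 4 the median was 0.22 for the mitochondrial genes, 0.21 over all genes and 0.15 over those abundant genes. Without that library the spread of the mitochondrial genes was close to that of all genes, but still above that of the 68 abundant genes.

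Genes outside the set with the most similar pattern were sought among the 6866 genes whose mean log2 CPM reached 5, by Pearson r with the mean of the mitochondrial genes after removal of diet means. Outside the set means not among the genes listed above. The identifiers could not be matched to names, so a gene found this way may itself be encoded in the mitochondrial genome. The closest was ENSG00000212907 (r = 0.998 over 10 libraries, and 0.986 without fish oil replicate 4). It took 0.0191% of counts in fish oil replicate 4 and 0.0680% to 0.0731% in the other fish oil libraries. The next was ENSG00000173230 (r = 0.987, and 0.878 without that library), at 0.0175% in fish oil replicate 4 and 0.0247% to 0.0253% in the others of its diet. The strongest opposite patterns belonged to ENSG00000228474 (r = -0.988, and -0.885 without that library) and ENSG00000185825 (r = -0.984, and -0.880). ENSG00000228474 took 0.0181% of counts in fish oil replicate 4 against 0.0108% to 0.0114% in the others of its diet. An r above 0.9 was reached by 50 genes with all libraries and by 18 without fish oil replicate 4.

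Whether diet changed the mitochondrial genes was tested in 1 edgeR quasi-likelihood fit of all genes and libraries, with Benjamini-Hochberg adjustment over the 16013 genes. None of the 10 genes passed an adjusted p of 0.05 in any comparison. The count was also 0 with DESeq2 and with limma-voom using quality weights. The comparisons with control share the same 3 control libraries, so their values are given side by side and not set against each other.

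For DHA oil against control, all 10 log2 fold changes were above 0 (49.2% of all genes were below), from 0.05 for MT-CO2 to 0.31 for MT-ND3. Their median was 0.14, beside 0.00 over all genes. The smallest unadjusted p was 0.365 in edgeR, and all adjusted p were 1. No member was called, where 0% of all genes were, and 0 members had an unadjusted p under 0.05, where 2.74% of all genes did. For MT-ND1 the log2 fold change was 0.25 ± 0.33 (SE), with a 95% interval of -0.45 to 0.95, which leaves room for a change of nearly 2-fold. Without control replicate 1 the median of the 10 genes was 0.37, and without control replicate 2 it was 0.02. Removing any 1 of the fish oil libraries left the median at 0.14. That is no check, since these libraries enter this comparison only through the shared scaling, filter and spread.

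For fish oil against control, all 10 log2 fold changes were below 0, where 48.5% of all genes were. They ran from -0.59 for MT-ND1 to -0.17 for MT-ND3, with a median of -0.37 beside 0.01 over all genes. No member was called (0.00624% of all genes were) and 0 had an unadjusted p under 0.05 (3.48% of all genes did). MT-ND1 had a log2 fold change of -0.59 ± 0.31 (SE; 95% interval -1.24 to 0.07, adjusted p = 0.999 in edgeR). MT-CO3 had -0.49 ± 0.26 (SE; -1.05 to 0.08, adjusted p = 0.999 in edgeR). Without fish oil replicate 4 the median was -0.11, MT-ND1 stood at -0.32, MT-CO3 at -0.26, and MT-ND3 turned to 0.12. Without control replicate 1 the median was -0.16, and with limma-voom and quality weights, over all libraries, it was -0.20.

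For fish oil against DHA oil, all 10 log2 fold changes were below 0, where 47.9% of all genes were. They ran from -0.84 for MT-ND1 to -0.42 for MT-CO2, with a median of -0.50 beside 0.01 over all genes. No member was called (0% of all genes were), and 1, MT-ND1, had an unadjusted p under 0.05 (4.84% of all genes did). MT-ND1 had a log2 fold change of -0.84 ± 0.31 (SE; 95% interval -1.49 to -0.19) with an unadjusted p of 0.0152 and an adjusted p of 0.875 in edgeR. In percent of counts, 5 of the 10 genes (MT-ND1, MT-ND4, MT-CO1, MT-CO3 and MT-CYB) had all 4 fish oil libraries below all 3 DHA oil libraries, against 2.05% of all genes. On the log2 CPM scale MT-ATP6 joined them, making 6, against 2.08% of all genes. Since fish oil replicate 4 was singled out for low values, the counts were also taken without it, an alternative chosen after seeing the data. That library was the lowest for all 10 genes, so leaving it out could not alter their counts of 5 and 6, and this is no check. The share of all genes was then 3.31% in percent of counts and 3.47% on the log2 CPM scale. Because the 10 genes vary together, these counts do not hold 10 independent observations. The same applies to the other counts of these genes set beside a share of all genes, and all are a description.

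The size of that difference rested on fish oil replicate 4, and its sign did not. Without this library the median was -0.25, with all 10 genes still below 0, from -0.57 for MT-ND1 to -0.16 for MT-CO2. MT-ND1 had the smallest unadjusted p of the 10 in that fit, 0.0061, and an adjusted p of 0.999 in edgeR. Leaving out any 1 of the other libraries gave medians between -0.61 and -0.44.

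**Figure D5:**
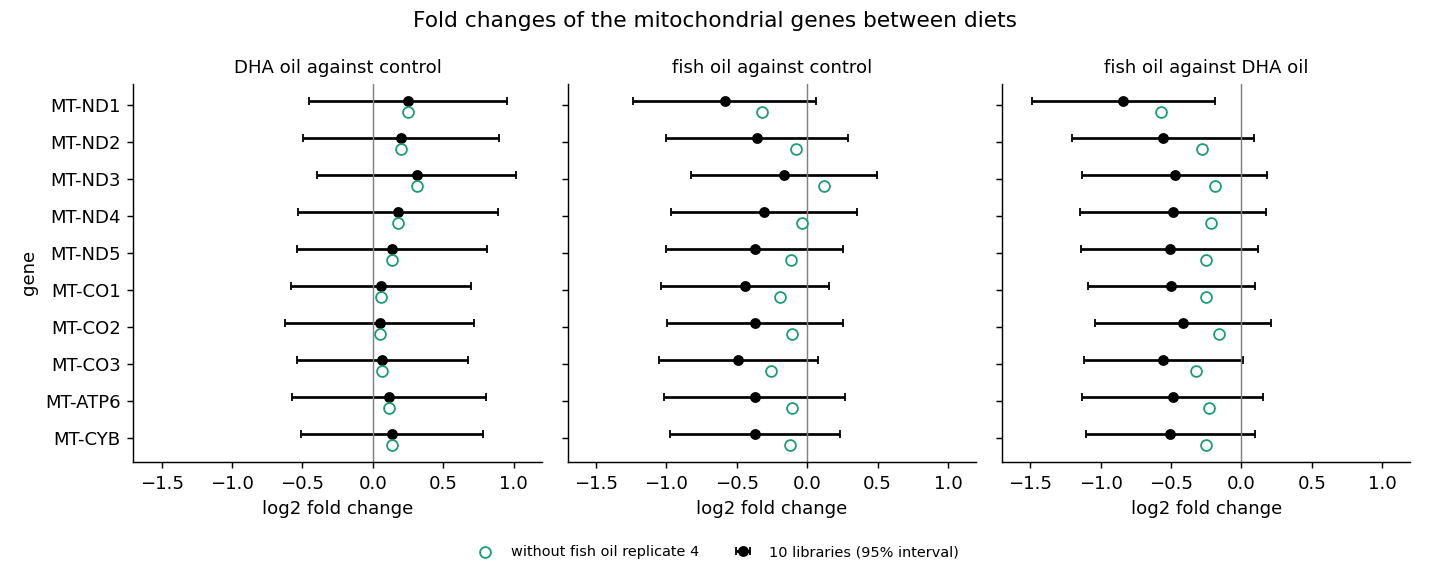
Log2 fold changes (x axis) of each mitochondrial gene (y axis) for DHA oil against control, fish oil against control and fish oil against DHA oil; black points with 95% intervals are the fit of all 10 libraries and green rings the same fit without fish oil replicate 4. In the fit of all libraries MT-ND1 in fish oil against DHA oil, at -0.84, has the 1 interval that stays off 0, and the rings of both fish oil comparisons lie nearer to 0 than the points.

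Taking both oils together against control, 9 of 10 log2 fold changes were below 0 (49.6% of all genes were), with a median of -0.12. MT-ND3 was the exception at 0.07. None was called (0.131% of all genes were), none had an unadjusted p under 0.05 (2.62% of all genes did), and the smallest unadjusted p in edgeR was 0.390, for MT-CO3. The count below 0 was 4 without fish oil replicate 4, 3 without control replicate 1, 4 with the replicate number as a block and 6 with limma-voom and quality weights. Without fish oil replicate 4 the median was 0.01, so the direction of these differences depends on single libraries.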

How the data were processed

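Raw counts of reads per human Ensembl gene were used as the authors deposited them. The submitters' processing notes name STAR, GRCh38 and HTSeq 0.9.0. The organism label is mouse (the graft host), while the identifiers are human. Libraries came from a stranded poly(A) kit, read as single ends, per the labels' protocols. Which annotation was used, whether strand was counted, how multiply placed reads were treated and whether mouse reads were removed is not stated in the sources used here. Some nuclear copies of mitochondrial DNA closely resemble parts of it, so how shared reads were counted could change the levels. Poly(A) selection captures these RNAs through their short tails, so capture can also affect their share.

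Low genes were dropped by filterByExpr (minimum count 10), counts were scaled by TMM, and all 10 libraries were fitted with diet as the only factor in edgeR 4.0.16 (R 4.3.3). SE is the absolute log2 fold change divided by the square root of F, intervals are 95%, and log2 CPM uses a prior count of 2. Shares are percent of the raw total, with Wilson intervals at the 95% level. Alternatives used DESeq2 1.42.0, limma 3.58.1 (voom with sample quality weights), other scalings and filters, a replicate block, and left-out libraries. Same-numbered libraries did not deviate together (r = -0.171 to 0.182 over 9 pairs, 1 of them above 0.1). No 2 libraries agreed within sampling noise.

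The members, lists and alternatives were chosen with earlier results of these data known. Named genes are the 10 members and the 2 identifiers most and 2 least like them. The 12 lists of nuclear partners and cell type markers hold 137 symbols, of which 0 could be matched to an identifier, so none was measured. The labels give no batch.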

Additional observations from a re-analysis of the deposited data

Results flagged for a closer look

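Among the 4 fish oil libraries, 1 stood far from the others in 7 of 21 measures. The library was fish oil replicate 4 each time. A gap of this size arises by chance in about 1 of 20 groups of 4, but that rate does not apply here. The library was singled out beforehand for a low share to which these genes contribute, and the genes vary together. The gaps are therefore a description. The gap to the nearest library was 0.938 of the range for the summed share of the mitochondrial genes, 0.858 for MT-ND2, 0.958 for MT-CO1, 0.934 for MT-CO2, 0.859 for MT-CO3, 0.894 for MT-ATP6 and 0.876 for MT-CYB. No gene's proportion of the mitochondrial sum stood out in this way.

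MT-CYB had all 3 DHA oil libraries above the control mean of 0.467% of counts and all 4 fish oil libraries below it. The fish oil mean minus the DHA oil mean was -0.154 percentage points with all libraries. Without fish oil replicate 4 the fish oil mean was 0.438%, beside 0.522% in DHA oil, so the difference was smaller. The oils were compared directly in edgeR, with a log2 fold change of -0.50 and an adjusted p of 0.875, so opposite directions were not shown, and the 3 controls (0.383% to 0.615%) spanned most oil libraries.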

How the results depend on the processing

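None of the 10 mitochondrial genes passed an adjusted p of 0.05 under any alternative run, so what varied was the size and sign of uncalled values and the number of other genes called. Over the whole table, genes called numbered 0 for DHA oil and 1 for fish oil against control, 0 between fish oil and DHA oil, and 21 for both oils against control, an order kept below. With no filter on low counts they numbered 57, 56, 14 and 76, and with DESeq2 11, 20, 1 and 27. With limma-voom and sample quality weights they numbered 3, 0, 0 and 1, and the medians of the mitochondrial genes were 0.19, -0.20, -0.38 and -0.0080, beside 0.14, -0.37, -0.50 and -0.12 in edgeR. For fish oil against control the count was 0 with total counts, with scaling that left out the mitochondrial genes and with the strict filter, and 7 with only the groups compared. For both oils it was 0 with the strict filter. With fish oil replicates 2 and 4 both left out it was 0 for fish oil against control and 0 for both oils. Leaving out 1 library gave 0 to 5, 0 to 22, 0 to 1 and 3 to 35. The highest counts against control came without control replicate 2, and for both oils the count was 3 when control replicate 1 was left out, 12, 4 and 5 for fish oil replicates 1, 2 and 4, and 6 and 8 for DHA oil replicates 2 and 3. For fish oil against control it was 3 and 19 when control replicate 1 or 3 was left out, 6 and 4 for DHA oil replicate 1 or 3, and 0 for DHA oil replicate 2 and each fish oil library. For DHA oil against control it was 2 when DHA oil replicate 1 was left out. The cause was not tested.

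Without a filter, all 10 mitochondrial genes had an unadjusted p under 0.05 in edgeR for fish oil against DHA oil (smallest adjusted p = 0.121). With the filter 1 did, and without it 1412 of all 26038 genes did. For fish oil against control 3 of the 10 did without a filter (smallest adjusted p = 0.84), against 0 with it. Of all 26038 genes, 1024 did so in that comparison without a filter. With the replicate block, genes called numbered 1, 0, 0 and 12. The replicate numbers are only shared labels, and replicate 4 exists in fish oil alone, so the block takes that library out of the comparison. The medians of the 10 genes under the block were 0.15, -0.10, -0.25 and 0.02. Of 830 single-gene values, 37 had the opposite sign, none of them called, and both oils against control held 25 of these. The 830 include runs that left out a library of a diet not compared, which could hardly change a sign. The proportion is therefore no measure of stability. For fish oil against control MT-ND3 stood at 0.00225 in limma-voom, 0.13 with the replicate block and 0.13 without fish oil replicates 2 and 4, and ran from -0.34 to 0.12 on leaving out 1 library. For DHA oil against control such ranges were -0.052 to 0.242 for MT-CO1, -0.075 to 0.233 for MT-CO2, -0.034 to 0.244 for MT-CO3 and -0.020 to 0.371 for MT-ATP6. For both oils they were -0.164 to 0.0951 for MT-ND2, -0.020 to 0.215 for MT-ND3, -0.202 to 0.171 for MT-ND4, -0.239 to 0.118 for MT-ND5, -0.280 to 0.0234 for MT-CO2, -0.266 to 0.126 for MT-ATP6 and -0.234 to 0.113 for MT-CYB, and the median of the 10 genes ran from -0.24 without control replicate 2 to 0.10 without control replicate 1. In limma-voom the signs turned for both oils in MT-ND2 (0.035), MT-ND4 (0.048) and MT-CYB (0.0023). With the replicate block they turned in MT-ND2 (0.071), MT-ND4 (0.089), MT-ND5 (0.024), MT-ATP6 (0.025) and MT-CYB (0.029). Without fish oil replicates 2 and 4 they turned in MT-ND1 (0.027), MT-ND2 (0.076), MT-ND4 (0.053) and MT-CYB (0.028). The difference in summed share, in percentage points, was 0.56, -1.24, -1.80 and -0.34. Outside the 10 largest other genes it was 0.58, -1.29, -1.87 and -0.35, and over the TMM-scaled total 0.46, -1.32, -1.79 and -0.43. With 3 or 4 libraries a diet, the intervals of the mitochondrial genes allow sizeable changes in either direction.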
